A study of Mus musculus with 6 samples.

Results

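Collagens are built from alpha chains, each the product of its own gene, and the chain genes are named Col followed by the collagen type and the chain number. The genes described here are all those whose printed name on the array has this form. The rule found 84 probes (102 spots) under 41 names, of 41174 probes and 27845 names on the array. One of the names, Col4a3bp, belongs to a lipid transfer protein and not to a collagen chain, which left 40 chain genes with 80 probes. By type, 9 were fibrillar (I, II, III, V and XI), 8 belonged to basement membranes (IV, XV and XVIII), 3 to the beaded filaments of type VI, and 20 were others. Types XXIV and XXVII, which resemble fibrillar collagens in sequence, fell under the others by this rule.

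Hepa1-6, a mouse hepatoma line, was grown under the skin of female C57Bl/6 mice, and tumors were taken 10 days (tumors 302, 307 and 312) or 15 days (303, 313 and 318) after the cells were given. On each of the 6 arrays, tumor RNA carried the dye Cy5, and Cy3 marked a reference that the labels describe as total RNA from blood of an untreated female of the strain. All tumors received the same cells and no treatment is named in the labels. Nothing in the labels ties a tumor to a mouse, and p-values reflect the spread between these samples only; they leave out the spread of the reference, which has a single description. Dyes were not swapped, and the ratios carry any preference of a probe for one dye. The tumor is a mixture of hepatoma cells and host cells, and in such a sample fewer cells of a type and less RNA per cell cannot be told apart.

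Collagen chains fold in threes into a triple helix inside the endoplasmic reticulum, after hydroxylation of prolines and lysines. There a chaperone binds the helix. Fibrillar collagens are then trimmed, pack into fibrils and are cross-linked by lysyl oxidases; basement membrane collagens form sheets under epithelia and around vessels; and further types decorate fibrils, anchor layers to each other or stay in cell membranes. In solid tumors the fibrillar chains are mostly products of fibroblasts and pericytes.

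The arrays detected a similar share of spots. By the flags of the scanner software, Cy5 was well above background for 52.4% to 58.5% of an array's spots and Cy3 for 47.5% to 52.8%. An area of the array of tumor 312, with 16.9% of its spots, was dim. In it lay 2 of the 10 spots of the Col1a1 probe, 1 of 10 of the Col2a1 probe, and the only spot of the probe used for Col4a6, Col5a1, Col12a1, Col19a1, Col23a1 and Col25a1. The reference did not match its label in all markers. Of 4 pan-leukocyte markers, 3 passed the scanner's background flag in Cy3 on each of the 6 arrays, but Ptprc (CD45) did so on none with the probe used. Of 10 hepatocyte and hepatoma markers 7 did so on all 6, among them Krt8 (log2 Cy3 signal 17.18 to 17.33) and Afp (15.83 to 17.51), as did 5 of 10 skin epithelium markers, among them Perp, and 20 of the 32 chains tested below; these marker genes were named after their values were seen. The ratios are therefore against a reference labelled as blood, whose makeup was not tested. Whether the Cy3 signal of genes bright in Cy5 came from the reference alone was not tested either. Of the 40 chain genes, 32 had a signal well above background, in one dye or the other, on 3 or more arrays and were tested. Because a gene that is bright on one side passes through that side alone, these 32 do not stand for all chains. The other 8, Col4a3, Col4a5, Col9a3, Col10a1, Col17a1, Col19a1, Col25a1 and Col28a1, were above background in at most 2 tumors, and their mean log2 ratios lay between -0.24 and 0.30.

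Against the reference, collagen RNA stood high in every tumor for most chains of fibrils and those of type VI, moderately high for the general basement membrane chains, and near or below the reference for many of the rarer types. Of the 32 chains tested, 21 (65.6%) were higher in tumor and 2 (6.25%) lower, at an adjusted p under 0.05 and a log2 ratio of at least 1 in size (limma, 2-sided, Benjamini-Hochberg). Over all 16385 genes tested, 25.5% were higher and 9.75% lower. The median log2 ratio was 2.24 for the chains and 0.22 for all genes. Median centring in place of loess moved the all-gene median to -0.34 and turned the share of higher calls among all calls from 72.3% to 41.4%, and it was 57.8% with the processed signals of the scanner software and 57.9% with the authors' value table, but 21, 23 and 23 chains were then higher and 2 lower. All 21 higher chains were above 0 in each of the 6 tumors, and 17 of them were above 1 in each. Across the 32 chains, the log2 ratios of any pair of tumors correlated with r from 0.936 to 0.997, a description over genes that share the reference and the arrays.

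**Figure D1:**
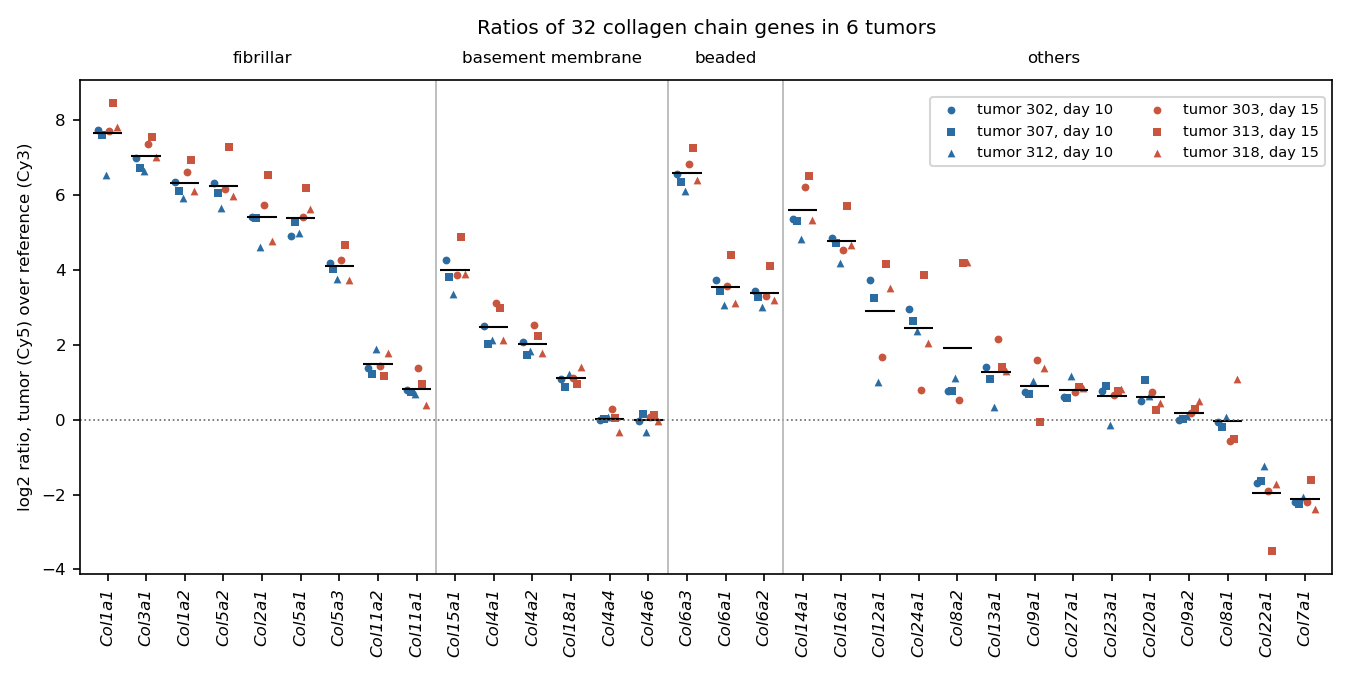
Log2 ratio of tumor (Cy5) over reference (Cy3) for the 32 tested chain genes, by type, with 1 point per tumor (blue day 10, red day 15) and a bar at the mean of 6. Fibrillar chains reach a mean of 7.65, the beaded chains lie between 3.39 and 6.59, and Col7a1 and Col22a1 lie below the reference in every tumor.

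The fibrillar chains had the highest ratios as a group, with a median of 5.41, and 8 of 9 were higher. Here and below, values are given in the order 302, 307, 312 for day 10 and 303, 313, 318 for day 15. Col1a1, the gene of the major chain of type I collagen, the main protein of fibrils, had log2 ratios of 7.74, 7.61 and 6.53 at day 10 against 7.72, 8.47 and 7.83 at day 15. Its mean was 7.65 ± 0.63 (SD, n = 6, as for all means against the reference), a 201-fold ratio (adjusted p = 4.69e-07, limma). Tumor 313 was highest and tumor 312, with part of its spots in the dim area, lowest. Col1a2, the partner chain of type I, gave 6.34, 6.10 and 5.92 at day 10 against 6.61, 6.93 and 6.11 at day 15, with a mean of 6.33 ± 0.38. Col3a1, whose product forms type III collagen of soft and healing tissue, gave 6.998, 6.73 and 6.65 at day 10 against 7.37, 7.56 and 7.02 at day 15. Its mean was 7.05 ± 0.35 (adjusted p = 1.45e-07), and no day 10 tumor reached a day 15 tumor.

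Type V collagen sits inside type I fibrils and helps set their width. Col5a2 had log2 ratios of 6.32, 6.07 and 5.66 at day 10 against 6.17, 7.29 and 5.97 at day 15, with a mean of 6.25 ± 0.56. Col5a1 gave 4.91, 5.28 and 4.99 against 5.40, 6.18 and 5.64, and a mean of 5.40 ± 0.47. Both were called, and Col5a1 was the only one of the pair whose days did not overlap. A second Col5a1 probe, above background in Cy5 on all 6 arrays, had a mean of only 1.26. Col5a3 ranged from 3.73 in tumor 318 to 4.67 in tumor 313, with a mean of 4.10 ± 0.35. Col2a1, the chain of cartilage type II collagen, gave 5.41, 5.40 and 4.60 at day 10 against 5.72, 6.53 and 4.79 at day 15. That mean of 5.41 ± 0.69 came from 1 probe, printed 10 times, while another Col2a1 probe had a mean of 0.79 and the third, above background on no array, 0.04. Of 9 marker genes of cartilage and tendon, 5 were above background in Cy5 on no array. Sox9, a regulator of cartilage formation, had a mean of -0.29 but was above background in both dyes on all 6 arrays. Comp, a matrix protein of cartilage and tendon, had a mean of 0.93, with values of -0.08, 0.002 and 0.34 at day 10 against 1.25, 1.96 and 2.14 at day 15. The minor cartilage chain Col11a2 was called at 1.48 ± 0.29. Col11a1 was well above background in the reference on 0 arrays and was at least 1.70-fold higher in tumor, under the fold used for a call.

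Of the 21 higher chains, the 250 bases before the start of Col1a2 and Col3a1 are shown because these fibrillar genes lay among the highest and are listed in the RefSeq promoter table (GRCm38.p6), as are 32 of the 40 chain genes. Capitals mark, on either strand, CCAAT (the letters of the CAAT box), TATAAA (those of the TATA box) and GGGCGG (those of the GC box). Col1a2 lies at chr6:4505368-4505617, plus strand, and Col3a1 at chr1:45311288-45311537, plus strand.
Col1a2: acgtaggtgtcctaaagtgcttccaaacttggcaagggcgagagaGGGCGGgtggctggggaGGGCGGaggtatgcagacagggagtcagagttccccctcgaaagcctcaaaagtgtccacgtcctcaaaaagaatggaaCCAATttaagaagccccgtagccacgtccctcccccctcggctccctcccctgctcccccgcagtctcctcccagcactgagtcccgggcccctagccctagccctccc
Col3a1: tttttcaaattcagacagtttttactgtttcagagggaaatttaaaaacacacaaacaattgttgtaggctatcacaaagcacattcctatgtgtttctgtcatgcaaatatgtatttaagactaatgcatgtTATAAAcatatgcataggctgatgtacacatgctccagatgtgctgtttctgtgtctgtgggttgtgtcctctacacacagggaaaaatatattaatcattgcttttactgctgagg
The Col1a2 window held CCAAT once and GGGCGG at 2 places, and the Col3a1 window TATAAA once. Across the 32 chain genes with a window, CCAAT occurred in 34.4%, TATAAA in 15.6% and GGGCGG in 56.2%, against 34.5%, 13.0% and 32.9% of all 27025 genes of the table. Among the 16 listed chains that were higher in tumor the shares were 37.5%, 18.8% and 56.2%. These are letter matches and not binding sites.

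Type VI collagen forms beaded filaments that link cells to the fibrils, and its 3 chains were all higher. Col6a3, the large chain, had log2 ratios of 6.56, 6.36 and 6.12 at day 10 against 6.85, 7.27 and 6.41 at day 15, a mean of 6.59 ± 0.41 (96.5-fold; adjusted p = 2.25e-07, limma). Col6a1 gave 3.73, 3.45 and 3.05 against 3.58, 4.39 and 3.12, with a mean of 3.55 ± 0.49. Col6a2 gave 3.43, 3.29 and 3.003 against 3.30, 4.12 and 3.20, with a mean of 3.39 ± 0.38. Tumor 313 was highest and tumor 312 lowest for each of them, and the days overlapped. Col6a1 and Col6a2 are neighbours on chromosome 10, and the log2 ratio of Col6a1 minus that of Col6a2 stayed between -0.08 and 0.30 across the tumors. The window before Col6a3, the highest chain outside the fibrillar group, held none of the 3 motifs (chr1:90843972-90844221, minus strand).
Col6a3: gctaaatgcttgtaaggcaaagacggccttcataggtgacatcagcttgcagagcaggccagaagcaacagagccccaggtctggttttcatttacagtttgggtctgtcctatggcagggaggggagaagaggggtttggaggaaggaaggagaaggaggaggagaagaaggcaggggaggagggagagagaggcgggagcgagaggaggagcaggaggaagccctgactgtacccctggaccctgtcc

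Among basement membrane chains, 4 of the 6 tested were higher, with a group median of 1.57. Col15a1, whose product lies between basement membranes and the fibrils beneath, had log2 ratios of 4.27, 3.81 and 3.35 at day 10 against 3.87, 4.88 and 3.89 at day 15, with a mean of 4.01 ± 0.52. Col4a1 and Col4a2 encode the chains of the type IV network found in nearly all basement membranes. Col4a1 gave 2.51, 2.02 and 2.13 against 3.13, 2.99 and 2.13, and Col4a2 gave 2.08, 1.72 and 1.83 against 2.53, 2.25 and 1.79. Their means were 2.48 ± 0.48 and 2.03 ± 0.31, and in both the highest value was in tumor 303 and not in tumor 313. These genes lie head to head on chromosome 8, with annotated starts that overlap by 22 bases. The log2 ratio of Col4a1 exceeded that of Col4a2 by 0.29 to 0.74 in every tumor. Col18a1, from whose product endostatin is cut, had a mean of 1.11 ± 0.19, close to the limit of 1. It was 0.14 after median centring and 0.97 with the scanner's processed signals, and then missed the call.

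The type IV chains of restricted basement membranes, such as those of the kidney filter, lay near the reference or were not tested. Col4a4 had a mean of 0.02 ± 0.20 and Col4a6 of -0.01 ± 0.18, and Col4a3 and Col4a5 were too dim for the test. A second Col4a4 probe, above background in Cy5 on 5 arrays and in Cy3 on none, had a mean of 1.21.

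The other types ranged most widely, from -2.12 to 5.59, with 6 of 14 higher and 2 lower. Col14a1 and Col16a1 encode collagens that decorate fibrils. Col14a1 had log2 ratios of 5.37, 5.30 and 4.83 at day 10 against 6.22, 6.51 and 5.34 at day 15, with a mean of 5.59 ± 0.64. Col16a1 gave 4.86, 4.72 and 4.19 against 4.53, 5.72 and 4.67, with a mean of 4.78 ± 0.51. Col12a1, of the same class, gave 3.73, 3.26 and 1.01 against 1.69, 4.17 and 3.53. Its low value in tumor 312 came from a spot in the dim area, but the one in tumor 303 did not. The mean was 2.90 ± 1.26, and 3.31 without that spot. A second Col12a1 probe, above background in Cy5 on all 6 arrays, had a mean of 1.06. Col24a1 gave 2.96, 2.64 and 2.38 against 0.80, 3.87 and 2.05, a mean of 2.45 ± 1.02, and was lowest in the same tumor 303. This probe was above background in Cy3 on no array, and the other Col24a1 probe, with a mean of 0.41, was on 2, so the size of the ratio is not well fixed.

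Col8a2, a short chain of the networks around vessels and beneath the corneal endothelium, was uneven. Its log2 ratios were 0.76, 0.76 and 1.10 at day 10 against 0.52, 4.18 and 4.23 at day 15. Tumors 313 and 318 stood far above the other 4, including the third day 15 tumor. The probe was above background in Cy5 on 3 of 6 arrays and in Cy3 on none. The mean log2 ratio of 1.93 was called (adjusted p = 0.0102, limma). The mean tumor signal was 3.11-fold the limit used for the reference, but it includes arrays where the tumor signal was not above background. This average is carried by tumors 313 and 318 and is no lower limit for the other tumors. Without tumor 312, 313 or 318, or where all 6 arrays had to be above background, too few arrays were left for the test, so the call rests on these 3 arrays. Its partner Col8a1 had a different profile, with values from -0.57 to 0.08 in 5 tumors and 1.08 in tumor 318. A second Col8a1 probe, above background in both dyes on all 6 arrays, had a lower mean, -0.87. It read -1.79 to -0.66 in the same 5 tumors and 0.61 in tumor 318. Col13a1, a chain that spans the cell membrane, was called at 1.29 ± 0.59 and ranged from 0.33 in tumor 312 to 2.15 in tumor 303. Its probe was above background in Cy5 on 5 arrays and in Cy3 on none, and the other Col13a1 probe, with a mean of -0.18, was on 2 in each dye. Without background correction the mean was 0.97 and missed the call.

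Both chains below the reference were lower in every tumor. Col7a1 encodes type VII collagen, the anchoring fibril that ties epidermis to dermis, and had log2 ratios of -2.20, -2.25 and -2.05 at day 10 against -2.19, -1.62 and -2.38 at day 15. Its mean was -2.12 ± 0.27, a ratio of 0.231 (adjusted p = 1.08e-05, limma). Col22a1, a fibril-associated chain of tissue junctions such as that of muscle and tendon, gave -1.70, -1.64 and -1.22 against -1.91, -3.52 and -1.71, with a mean of -1.95 ± 0.80. Tumor 313 was far below the others for Col22a1. The window before Col7a1 is given for comparison with the higher chains (chr9:108953336-108953585, plus strand); it held CCAAT on the minus strand and GGGCGG on the plus strand.
Col7a1: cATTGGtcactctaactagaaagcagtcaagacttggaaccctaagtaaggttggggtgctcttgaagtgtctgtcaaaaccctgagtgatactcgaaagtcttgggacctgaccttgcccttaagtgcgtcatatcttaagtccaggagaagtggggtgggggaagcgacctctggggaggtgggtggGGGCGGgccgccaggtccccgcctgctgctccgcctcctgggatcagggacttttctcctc

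The remaining tested chains were not called. Besides Col4a4, Col4a6, Col8a1 and Col11a1, these were Col9a1 (0.89), Col27a1 (0.80), Col23a1 (0.63), Col20a1 (0.61) and Col9a2 (0.18). Another Col23a1 probe had a mean of 1.04. Col9a1 and Col23a1 too were well above background in the reference on 0 arrays, and each was above background in Cy5 on 5. Averaged over the arrays, their tumor signals were at least 1.65-fold and 1.38-fold higher, which is no limit for a single tumor. With the scanner's processed signals Col9a1, Col11a1 and Col23a1 reached log2 ratios of 2.15, 1.86 and 1.74 and were called. Col4a3bp, which is no collagen, had a mean of 0.91 ± 0.13 with the probe used and between -0.48 and 0.02 with its 3 other probes.

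The size of a chain's ratio depended on the probe. Of the 40 chains, 29 had several probes, and each gene was represented by the probe of highest mean intensity. For 16 chains at least 2 probes were above background in Cy5 on 3 or more arrays, and in 8 of these the means of such probes differed by more than 1 log2 unit. Col1a1 probes gave 7.65, 3.69 and 2.71, Col3a1 probes above background 7.05 and 2.77, and Col6a3 probes 6.59 and 0.97. In contrast, the probes of Col18a1 (1.11 and 1.07), Col4a2 (2.03 and 1.89) and Col22a1 (-1.95 and -2.20) were close. The second Col6a2 probe read 0.03 in tumor 312, where its only spot lay in the dim area, and 3.56 to 5.01 in the other 5; without tumor 312 the means of the pair were 3.47 and 4.10. In none of the 16 did such probes take opposite signs. The filter keeps probes bright in the tumor dye, however, so it can leave out probes of low ratio. Among called chains, left-out probes differed in sign from the probe used for Col11a2 (-0.15 against 1.48) and Col13a1 (-0.18 against 1.29). With the mean of all probes in place of the brightest, Col11a2 (0.67) and Col13a1 (0.55) lost their calls and 19 chains remained higher.

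**Figure D2:**
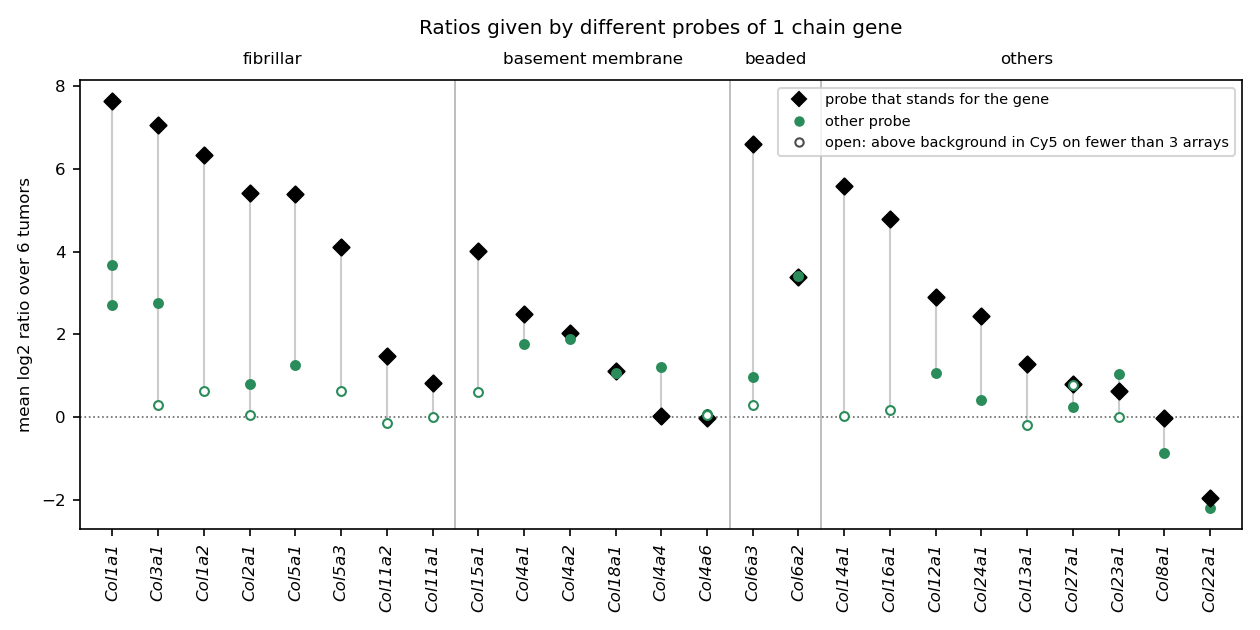
Mean log2 ratio over 6 tumors for each probe of the tested chain genes that have several probes; diamonds are the probes that stand for the gene, and open symbols are probes above background in Cy5 on fewer than 3 arrays. The Col1a1 probes span 2.71 to 7.65, whereas those of Col4a2 lie at 1.89 and 2.03.

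Between the days most fibrillar chains, the fibril-decorating Col14a1 and the type VI chains had somewhat higher values at day 15, but no chain passed the test. All day 10 arrays lay on 1 slide and all day 15 arrays on another, so slide and day cannot be told apart. By limma, 0 of 32 chains were called (smallest adjusted p 0.999), against 0.0567% of all 15875 genes tested. At an unadjusted p under 0.05, 3 chains were higher and 0 lower, against 2.32% and 1.51% of all genes. The difference was above 0 in 27 of 32 chains, with a median of 0.29, and in 55.0% of all genes, with a median of 0.02. The direction depended on the scaling: with median centring, which moved the all-gene median to -0.30, 17 of 32 chains were above 0 and their median was 0.01. Its size moved with single tumors, the chain median being 0.11 without tumor 313, 0.18 without tumor 312 and 0.47 without tumor 318, but it was above 0 without any one of the 6.

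The chains of smallest p were Col5a1, Col3a1 and Col14a1, the width-setting, the soft-tissue and the decorating chain. The log2 difference, day 15 minus day 10, was 0.68 ± 0.23 (SE, n = 3 and 3) for Col5a1, with an unadjusted p of 0.0261 by limma. For Col3a1 it was 0.52 ± 0.19, with an unadjusted p of 0.0333 by limma, and for Col14a1 0.86 ± 0.33, with an unadjusted p of 0.0404 by limma. None of these is under 0.05 after adjustment. The only spot of the Col5a1 probe on the array of tumor 312 lay in the dim area, and without it the difference was 0.64. In the tumor channel alone the differences were 0.89 ± 0.63, 0.42 ± 0.26 and 0.88 ± 0.43.

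Of the next chains, Col8a2 had the largest difference, 2.10 ± 0.99, carried by tumors 313 and 318. Without tumor 303 it was 3.33 and passed the test (adjusted p = 0.0266, limma, against 0.254 or more under the other settings that tested it), the one chain called in any of the fits that left out a tumor. Col1a1 differed by 0.71 ± 0.37, which was 0.33 without tumor 312. Col13a1 differed by 0.68 ± 0.35 and by 0.37 without tumor 312, and Col6a3 by 0.50 ± 0.25 and 0.28 without tumor 313. Col9a2, a fibril-associated chain of cartilage, had log2 ratios of -0.004, 0.03 and 0.10 against 0.18, 0.28 and 0.51 but was above background in Cy5 on 3 arrays only; its difference of 0.28 ± 0.15 did not pass.

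Every day 15 ratio exceeded every day 10 ratio in 3 chains, Col3a1, Col5a1 and Col9a2 (9.38%), where 5.05% of all genes did so. The reverse held for 1 chain, Col22a1 (3.12%), where 3.79% of all genes did. By group, 8 of 9 fibrillar chains had a positive difference (median 0.46), 5 of 6 basement membrane chains (median 0.22), 3 of 3 beaded chains (median 0.30) and 11 of 14 others (median 0.20). In the tumor channel alone, 0 of 32 chains were called by limma, 0 had an unadjusted p under 0.05, and 21 were above 0, with a median of 0.18. Without tumor 313, 14 of 30 were above 0 and the median was -0.02; without tumor 318 the median was 0.40, and with cyclic loess in place of quantile scaling 25 of 32 were above 0 and it was 0.28. Of all genes, 0% were called there, and the all-gene median was -0.10. In the reference channel alone, which held RNA of the same description on every array, 0 of 24 chains were called, 0 had an unadjusted p under 0.05, and 5 were above 0, with a median of -0.12 against -0.13 for all 13965 genes, of which 0% were called. With cyclic loess 12 of the 24 were above 0, with a median of 0.0089. The Cy3 signal of some genes outside the chains moved with their Cy5 signal. For Tnnc2, a skeletal muscle marker, log2 Cy3 was 11.55, 9.51 and 12.61 at day 10 against 7.41, 7.44 and 7.59 at day 15. Its log2 Cy5 was 14.95, 12.63 and 15.75 against 7.28, 7.33 and 7.16. Afp went the other way, with its highest Cy3 (17.51) and lowest Cy5 (11.93) in tumor 313. The cause was not tested.

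**Figure D3:**
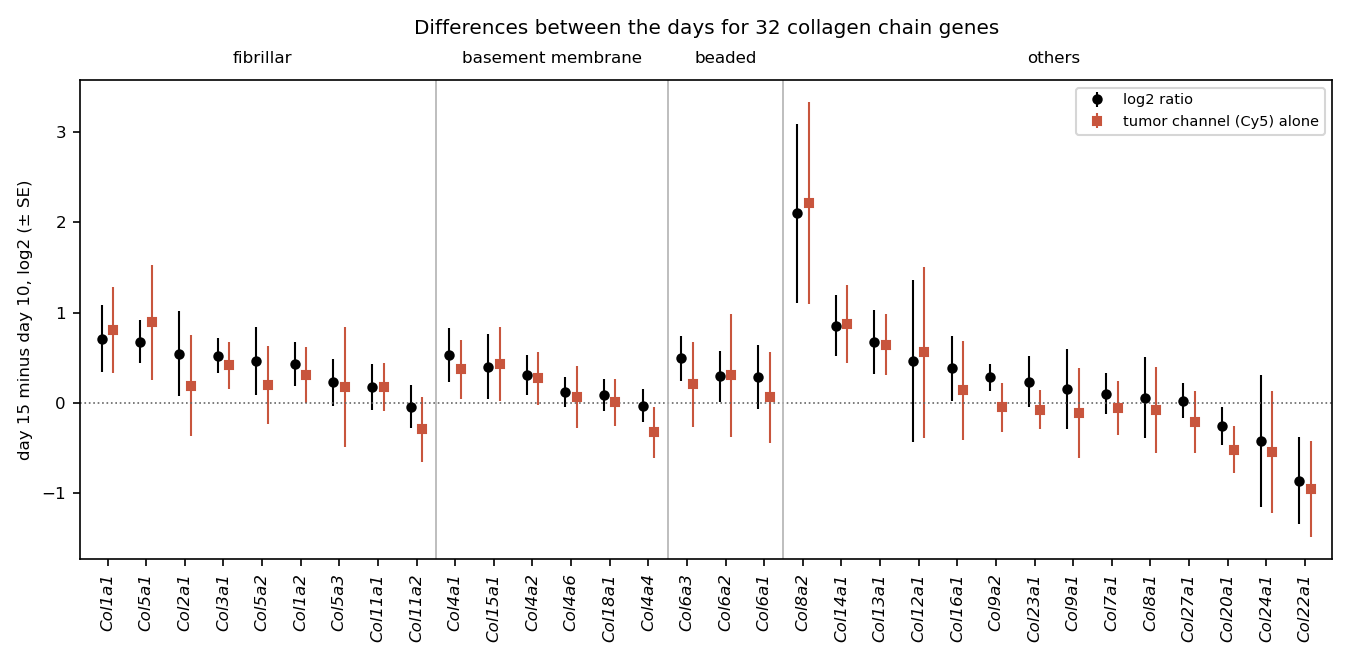
Day 15 minus day 10 for the 32 tested chain genes, as log2 ratio (black) and in the tumor channel alone (red), with bars of 1 standard error from limma (n = 3 and 3). Most fibrillar and beaded chains lie above 0 with bars that reach near it, and Col8a2 stands highest at 2.10.

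Single tumors stood out within the days. Tumor 313 had the highest ratio in 16 of 32 chains and tumor 312 the lowest in 15. The fibrillar median was 6.53 in tumor 313 and between 4.99 and 5.72 in the other 5, and the beaded median was 4.39 against 3.05 to 3.73. The basement membrane median was highest in tumor 303, at 1.81. In tumor 313 the markers of fibroblasts and pericytes also had their highest median, 4.69 against 3.74 to 4.29 elsewhere, as did those of endothelium (3.84 against 2.63 to 3.54). The hepatocyte and hepatoma markers, each above background in Cy5 on at least 1 array, had their lowest median there, -1.73 against 2.25 to 3.45, and their summed Cy5 signal was 32789 against 559327 to 897249.

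Marker lists of other cells differed between the tumors. The median of 12 skeletal muscle markers was 2.49 to 4.04 at day 10 and -0.14 to -0.05 at day 15, and their summed Cy5 signal was 25187 to 198840 and 1455 to 2393. By limma, 6 of the 12 were called lower at day 15, against 0.0567% of all genes called in either direction. Here too slide and day cannot be told apart. The median of 9 adipocyte markers was 0.09 to 2.66 at day 10 and 0.84 to 4.56 at day 15, highest in tumors 303 and 313. The lowest median, in tumor 312, was the value of Plin, whose only spot there lay in the dim area. The only Adipoq spot lay there too, whereas Cidec (-0.66) and Retn (0.03) were low in tumor 312 with spots outside it. The days overlapped, and of the 8 tested 0 were called by limma and 1 had an unadjusted p under 0.05. Fibroblast and pericyte markers were higher in value at day 15 for 10 of 10 genes and endothelial markers for 10 of 10, with 0 called in either list by limma and 4 and 6 genes at an unadjusted p under 0.05. Of all genes, 2.32% were higher at that unadjusted limit. Smooth muscle markers had medians of 1.003 to 2.29, macrophage markers 4.28 to 4.93, pan-leukocyte markers 3.37 to 3.98, and Schwann cell and nerve markers 0.21 to 1.51 across the 6 tumors. Skin epithelium markers, of which 4 of 10 were above background in Cy5 on no array, had medians of -0.42 to -0.20, and those of cartilage and tendon -0.07 to 0.12. The part of these cells in the collagen values was not tested.

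**Figure D4:**
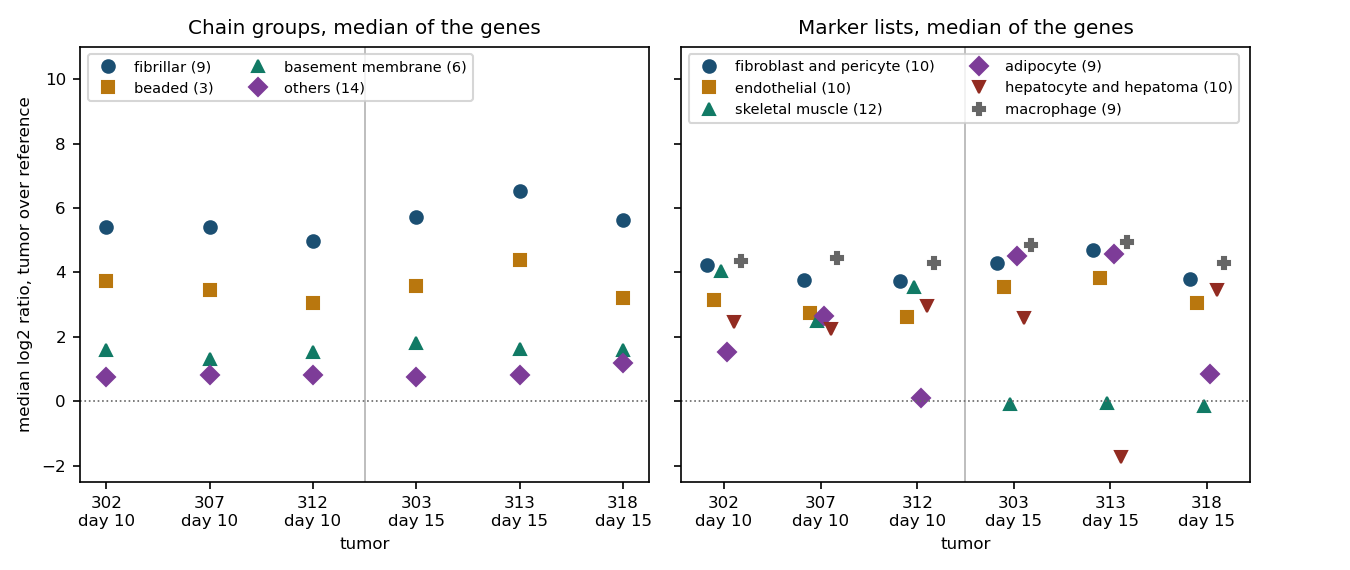
Median log2 ratio over the tested genes of each chain group (left) and over the genes of 6 marker lists (right) in each tumor, with the number of genes in parentheses. Fibrillar, beaded, fibroblast and endothelial medians are highest in tumor 313, where the hepatocyte and hepatoma median is -1.73, and the skeletal muscle median is high in the day 10 tumors only.

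Genes that fold, trim, cross-link, bind or degrade collagen were set beside the chains, from a list chosen with earlier results of these data known. All 41 were on the array and 37 were tested against the reference, of which 24 (64.9%) were higher and 2 (5.41%) lower, against 25.5% and 9.75% of all genes. The median was 1.64, against 0.22 for all genes. Serpinh1, the collagen chaperone, had log2 ratios of 7.49, 7.53 and 7.29 at day 10 against 7.82, 8.14 and 7.66 at day 15, a mean of 7.66 ± 0.30. Itga11, a collagen-binding integrin chain, had a mean of 6.09 ± 0.67, and Adamts2, which removes the amino-terminal propeptide, of 5.79 ± 0.36. The cross-linking enzyme gene Lox had a mean of 4.90 ± 0.89. The lower genes were Itga2, an integrin chain of platelets and epithelia, at -1.49 ± 0.51 and the lysyl oxidase relative Loxl4 at -1.25 ± 0.57.

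Between the days 0 of the 37 processing genes were called by limma, 4 had an unadjusted p under 0.05, and 22 were above 0, with a median of 0.09, against 55.0% of all genes and a median of 0.02. Of all genes, 2.32% were higher and 1.51% lower at that unadjusted limit. With median centring 8 of the 37 were above 0, with a median of -0.23. Those of smallest p were Adamts2 (0.52 ± 0.20 SE), P4hb (-0.52 ± 0.20), Serpinh1 (0.44 ± 0.17) and Itga1 (0.59 ± 0.24), with an unadjusted p of 0.0408, 0.0419, 0.0447 and 0.0475 by limma. P4hb, a subunit of prolyl hydroxylase that also serves as a disulfide isomerase, was thus the one of lower value at day 15. Each day 15 value exceeded the highest day 10 value for Serpinh1, Adamts2, Itga1, Ppib and Pcolce, and the reverse held for P4hb and Loxl4. Such orders were found in 5.05% and 3.79% of all genes. None of these differences passed after adjustment. The median of this list was -0.08 without tumor 313, 0.04 without tumor 312 and 0.26 without tumor 318.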

How the data were processed

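Each of the 6 tumors had its own 2-colour Agilent array, shared with the reference. The deposited scanner files came from Agilent Feature Extraction 9.1.3.1, per the file headers. Mean and local background intensity of each dye were used as deposited, unnormalized. The deposited log10 ratios of the authors' value table equalled the scanner's log ratio (difference 0) and served as an alternative after conversion to log2.

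In limma 3.58.1 (R 4.3.3), intensities were corrected with normexp (offset 50) and log2 ratios of the deposited arrays normalized by loess. Control and outlier spots were left out, spots of a probe averaged, and each gene name represented by its probe of highest mean log intensity. Genes entered the reference test if Cy5 or Cy3 was well above background on 3 arrays or more, and the day test if Cy5 was. Single channels were quantile normalized after normexp, without loess. Adjustment ran over all genes tested. At least N-fold ratios set the tumor mean against the higher of a dim probe's signal and the lowest signal well above background, per array, after Aquantile scaling; dye bias is not removed from them. The dim area of the array of tumor 312 was mapped as spots whose running median over 21 rows and 7 columns lay under -1 (log2).

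In simulated data made from these arrays, 50 genes each were changed by 1, 2, 3 and 4 log2 units. Among 15706 genes, day differences of these sizes were recovered in 34%, 94%, 84% and 100% of the changed genes. Among 16214 genes, reference ratios were recovered in 40%, 96%, 100% and 100%, where a ratio of 1 also had to reach the limit of 1. Unchanged genes called numbered 8 and 1. Values were given for the 4 chains of largest ratio per group (all beaded ones), the 8 of smallest p between days, and any called; Col8a1, Col4a4, Col4a6 and the other uncalled chains were added after their values were seen, to account for each tested chain. For the processing list the rule was the 4 of largest ratio and the 4 of smallest p; the 2 lower genes were added after their values were seen. The members and lists were chosen with earlier results of these data known. Promoter sequences came from a RefSeq table (GRCm38.p6), with motifs chosen as common promoter letters.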

Additional observations from a re-analysis of the deposited data

Results flagged for a closer look

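In 2 of the 32 chains tested, 1 of the 6 tumors stood apart from the rest by Dixon's gap test, which marks about 1 in 20 groups by chance. For Col22a1, the log2 ratio was -3.52 in tumor 313 and -1.91 in the next lowest tumor, a gap of 0.699 of the range. A second Col22a1 probe, with a mean of -2.20, was above background in Cy5 on 5 arrays. It too was lowest in tumor 313, at -3.28, with -2.25 in the next lowest, tumor 307. For Col23a1, the log2 ratio was -0.13 in tumor 312 and 0.66 in the next, a gap of 0.770 of the range, and the spot lay in the dim area of that array. Another Col23a1 probe, above background in Cy5 on all 6 arrays and outside that area, read 0.97 in tumor 312. Its values ranged from 0.89 to 1.34 across the tumors.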

How the results depend on the processing

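Against the reference, 19 to 23 chains were higher and 2 lower under the 9 other settings tried (no background correction, median centring, processed signals, the authors' value table, no filter, all 6 arrays above background, mean of all probes, array position as a block, dim area left out) and 20 to 21 and 2 when a tumor was left out. Chains near 0 changed sign. Col4a4 was -0.015 without background correction, -0.50 with median centring and -0.41 with the processed signals and with the value table. Col4a6 was 0.040 with the mean of all probes and 0.055 without the dim area. With a tumor left out, Col4a4 ranged from -0.052 to 0.10, Col4a6 from -0.067 to 0.055 and Col8a1 from -0.30 to 0.12; the cause was not tested. Between the days, 0 chains were called under the same settings, and 0 to 1 (Col8a2) with a tumor left out. Over all genes, 9 were called between the days, 3 with array position as a block, 1 where all 6 arrays had to be above background, 6 with the mean of probes, 7 to 10 under the rest, and 1 to 10 with a tumor left out. Against the reference, 1598 genes were lower, and 4612 with median centring, 3255 with the processed signals and 3251 with the value table. The processing list kept 23 to 24 higher and 2 lower genes without a tumor, and had 19 and 3 with median centring.

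No paired analysis was possible because the tumors of the days share no numbers. The slide could not be used as a block because each slide held 1 day. With 3 tumors a day, a change of 1 log2 unit was recovered in 34% of simulated cases; 6 of the tested chains were not above background in the reference with the probe used, and their ratios are limited by that signal. The number of arrays limits the precision of all values.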
